A study of Rattus norvegicus with 18 samples.

Results

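The genes examined were the zinc finger genes with Zfp symbols, followed in ageing rats in the nucleus pulposus, the soft centre of the disc between vertebrae. They were the rows of the gene table whose symbol is Zfp followed only by digits, leaving out Zfp36, whose product is a CCCH zinc finger protein that binds RNA. The rule found 228 rows among 18923 genes. A row entered the tests when it reached 1 FPKM (read fragments divided by transcript length in kilobases and by the library's size) in at least 3 of the 9 libraries used, and 199 of the 228 Zfp rows did so, among 11708 tested genes. The study profiled rat nucleus pulposus at 2, 10 and 20 months of age, with 3 libraries per age enriched for RNA carrying N6-methyladenosine and 3 input libraries per age without that step. The values come from the 9 input libraries and so measure RNA abundance. The labels name no strain, sex or treatment and do not tie the 3 libraries of an age to separate rats. All p-values therefore refer to the spread among these libraries alone, and part or all of it may be technical.

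Most Zfp symbols name proteins of the C2H2 type, in which short fingers folded around zinc ions stand in tandem and read DNA sequence. Many carry a KRAB domain, which recruits the scaffold protein TRIM28 together with histone methyltransferases and heterochromatin proteins and so silences the bound DNA, often a transposable element. Others carry a SCAN domain, which pairs zinc finger proteins with each other, or act as developmental regulators, as parts of activating complexes or on RNA, and KRAB genes often lie side by side in clusters that arose by duplication. The annotation fitted the label, since 222 of the 228 rows and 196 of the 199 tested members carried the Gene Ontology term for nucleic acid binding.

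The promoters of 4 members are shown because the results turn on these genes, of which Zfp386 and Zfp292 rose and Zfp704 and Zfp113 fell with age. Each holds 300 bases around the RefSeq start of the gene in the rat build GRCr8, 5′ to 3′ on the gene's strand. The windows are chr6:143109358-143109657 (plus strand) for Zfp386, chr5:54264389-54264688 (minus strand) for Zfp292, chr2:94128323-94128622 (plus strand) for Zfp704 and chr12:22147378-22147677 (minus strand) for Zfp113. Capitals mark matches, on either strand, to CCAAT (the CCAAT box), GGGCGG (SP factors), AAGATGGC (YY1), CCGGAAGT (ETS factors) and TATAAA (the TATA box).
Zfp386: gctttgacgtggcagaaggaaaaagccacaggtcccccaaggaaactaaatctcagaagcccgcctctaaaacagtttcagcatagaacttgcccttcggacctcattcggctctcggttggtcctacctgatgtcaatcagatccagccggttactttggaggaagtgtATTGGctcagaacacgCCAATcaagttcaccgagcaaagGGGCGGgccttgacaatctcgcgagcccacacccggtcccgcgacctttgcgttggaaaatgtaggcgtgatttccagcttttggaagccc
Zfp292: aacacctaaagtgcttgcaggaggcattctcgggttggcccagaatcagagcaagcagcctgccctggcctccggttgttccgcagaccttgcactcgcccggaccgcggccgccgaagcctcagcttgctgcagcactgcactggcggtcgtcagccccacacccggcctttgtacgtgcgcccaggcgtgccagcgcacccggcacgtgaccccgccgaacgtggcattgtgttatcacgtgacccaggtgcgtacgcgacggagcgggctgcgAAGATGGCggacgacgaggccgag
Zfp704: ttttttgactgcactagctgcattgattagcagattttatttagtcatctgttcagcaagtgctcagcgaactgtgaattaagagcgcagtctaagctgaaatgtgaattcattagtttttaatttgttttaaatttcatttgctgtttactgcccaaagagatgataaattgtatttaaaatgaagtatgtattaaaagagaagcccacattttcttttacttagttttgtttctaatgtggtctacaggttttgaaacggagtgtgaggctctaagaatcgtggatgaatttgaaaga
Zfp113: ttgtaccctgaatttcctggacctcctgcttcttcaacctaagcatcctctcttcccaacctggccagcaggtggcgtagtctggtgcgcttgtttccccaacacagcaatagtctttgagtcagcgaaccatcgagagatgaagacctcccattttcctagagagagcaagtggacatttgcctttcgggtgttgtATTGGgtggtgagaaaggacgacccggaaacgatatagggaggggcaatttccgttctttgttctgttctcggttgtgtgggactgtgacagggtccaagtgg
The Zfp292 promoter held 32 CpG dinucleotides, that of Zfp386 16, that of Zfp113 10 and that of Zfp704 4, and the Zfp704 window held none of the 5 motifs. The median was 18 over 161 promoters of members and 22 over 8200 of tested genes. Of other members that rose, Zfp182 had 1 CpG, Zfp51 12 and Zfp52 23, so a rise went with both low and high counts. RefSeq promoters were found by symbol for 161 of the 197 member symbols. A CCAAT match was present in 43.5% of these 161 promoters, against 38.1% of the 8200 promoters matched to tested genes, and a GGGCGG match in 49.1%, against 65.3%. The AAGATGGC match of Zfp292 was shared by 6.83% of the members' promoters, against 6.44% of those of tested genes. A match describes the letters only and is not evidence of a factor at that place.

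Members were expressed at low to moderate levels. Their mean FPKM over the 9 libraries ran between 0.763 and 42.3 with a median of 5.02, against a median of 8.83 for all tested genes, and 156 of the 199 lay between 1 and 10 FPKM. The 199 members together made up 0.319 ± 0.0018% of the FPKM of all genes at 2 months, 0.337 ± 0.0005% at 10 months and 0.285 ± 0.0023% in the 20-month libraries (SD, n = 3 each). The ages did not overlap in this share, which was highest at 10 months and lowest at 20 months. Of the members, 175 reached 1 FPKM in every library and 24 in 3 to 8 of them, 8 of these 24 in no 20-month library. Of the 29 rows under the filter, 24 never reached 1 FPKM and 5 did so in 1 or 2 libraries (Zfp871, Zfp697, Zfp606, Zfp647 and Zfp185). Just inside it, Zfp13 and Zfp600 reached 1 FPKM in 3 libraries each, Zfp600 in the 20-month libraries alone, so that it could enter the tests only by being high there.

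The 20-month libraries stood apart in ways that reach beyond these genes. The commonest number of bases covered on thinly read transcripts, a stand-in for the read length, was 141 at 20 months against 132 at the other ages. Of the aligned bases, 80.1 to 80.9% fell on the listed transcripts at 20 months against 85.7 to 86.1% earlier, and ribosomal protein genes took 19.0 to 19.7% of the FPKM against 12.7 to 15.3%. The median log2 change of all tested genes was -0.20 at 20 against 2 months and -0.23 at 20 against 10 months, and 0.00 in both after rescaling the libraries by median-of-ratios factors, so counts for these comparisons are also given after rescaling. Age and whatever else sets these libraries apart cannot be told apart. The libraries held 3.53 to 5.04 gigabases of aligned sequence. The summed FPKM of 10 nucleus pulposus and notochord markers lay between 20091 and 21205 at 2 months, between 16664 and 16840 at 10 months and between 16830 and 17356 at 20 months, with Shh at 0 at 10 and 20 months. Markers of other cells moved with age too: red cell markers had sums of 82.9 to 93.2 (2 months), 9.57 to 10.6 (10 months) and 36.6 to 42.5 FPKM (20 months), and annulus markers, in the same order, 14 to 14.9, 5.40 to 5.87 and 8.73 to 22.2 FPKM. At 20 months the annulus sum was 22.2 in replicate 3 alone, against 8.73 and 8.75 in replicates 1 and 2. The 5 skeletal muscle markers had sums between 22.5 and 24.0 FPKM at 2 months, between 14.9 and 16.8 at 10 months, and of 3.75, 3.87 and 202 in the 20-month libraries, the last in replicate 3. The part of these cells in the results was not tested; without that replicate 26 members were higher and 104 lower at 20 against 2 months. In bulk tissue, fewer cells of a type and less RNA per cell cannot be told apart.

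By limma's moderated F test over the 3 ages, 146 of the 199 members (73.4%) differed at an adjusted p under 0.05, against 75.4% of all tested genes. After rescaling it was 117 members (58.8%, against 67.1%), and after quantile normalization 119 (59.8%, against 66.3%). The mean was highest at 10 months in 103 members (51.8%, against 40.6% of all tested genes), at 2 months in 62 and at 20 months in 34. It was lowest at 20 months in 146 members (73.4%, against 64.2%). These positions were counted in the values as deposited only, and they depend on the scale. At 20 against 2 months, 24.1% of members had a positive change as deposited and 43.7% after rescaling, against 32.0% and 50.0% of all tested genes. At 20 against 10 months it was 19.1% and 38.2%, against 24.9% and 50.1%. As deposited, maxima thus lay most often at 10 months and minima at 20 months. The step up was small: the median difference to the 2-month mean, in log2(FPKM + 1), was 0.06, 0.09 and 0.05 in the 10-month libraries and -0.22, -0.28 and -0.24 in the 20-month libraries. Over all tested genes it was 0.04 in each 10-month library and -0.18, -0.21 and -0.21 in the 20-month libraries.

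**Figure D1:**
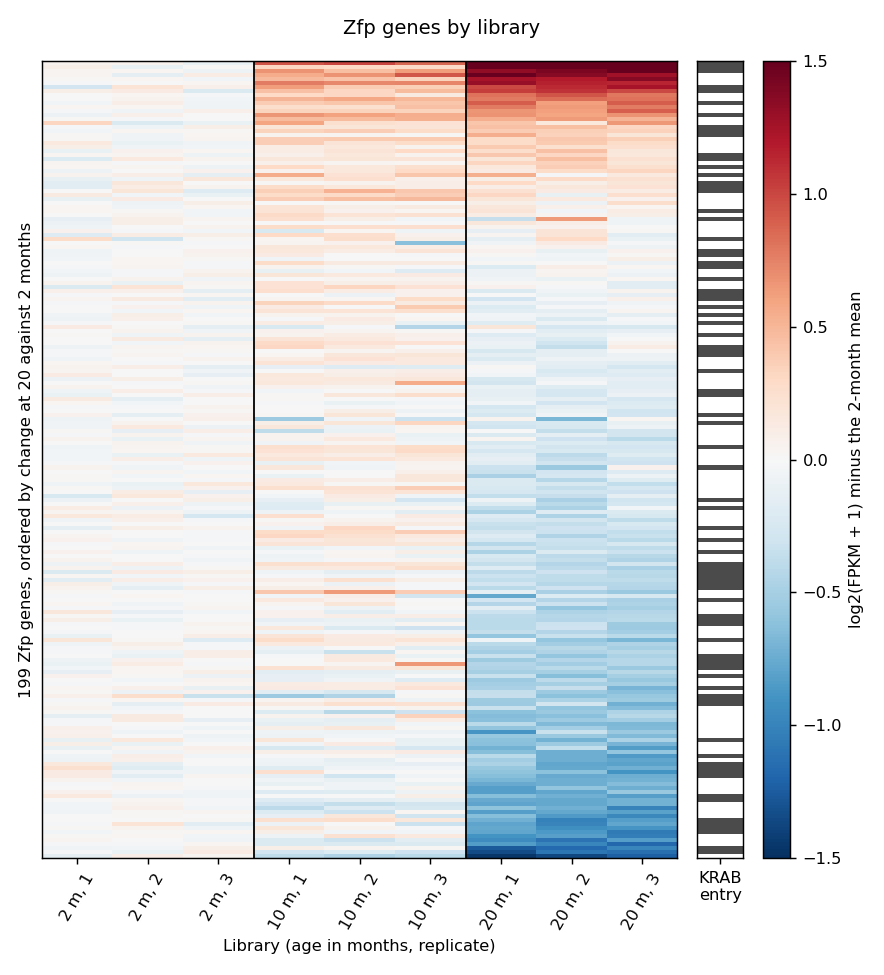
Heat map of 199 Zfp genes (down the page, ordered by their change at 20 against 2 months) in 9 libraries (across), coloured by log2(FPKM + 1) minus the gene's mean at 2 months, with a strip that marks the 82 genes with the KRAB entry. The 20-month libraries show both the strongest gains and the strongest losses, with 27 genes called higher and 106 called lower at 20 against 2 months. Of all tested genes, 18.6% were called higher and 49.6% lower. After median-of-ratios rescaling, which the map does not use, it was 45 and 66 Zfp genes, against 31.1% and 31.2% of all tested genes.

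At 10 against 2 months, 42 members passed the test, of which 36 rose and 6 fell. The background over all tested genes was 30.3% called, 19% higher and 11.4% lower, and among tested genes with a mean of 1 to 10 FPKM it was 15.7% higher and 6.76% lower. Members were called higher in 18.1% and lower in 3.02%, so the share that rose was near the background and the share that fell was under it. The 6 that fell were Zfp704, Zfp367, Zfp521, Zfp111, Zfp516 and Zfp251. Rescaling left 26 higher and 7 lower members (13.1% and 3.52%, against 15.1% and 14.5% of all tested genes). Quantile normalization left 24 and 8, with 29.3% of all tested genes called in either direction. No member changed by a log2 value of 1 or more, and among all 11708 tested genes 33 rises and 38 falls of that size were called. The count of called members was 27 without replicate 1 and 26 without replicate 2 of the 10-month libraries. In the same fits the share of all tested genes called was also lower, at 21.5% and 21.4%.

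At 20 against 2 months, 133 members passed, 27 higher and 106 lower, against a background of 68.2% called, 18.6% higher and 49.6% lower. The 8 members that reached 1 FPKM in no 20-month library entered through the earlier ages, so a fall in them gives no support to the lower count. With at least 1 FPKM required in all 9 libraries, 118 of 175 members passed, 25 higher and 93 lower, against 69.9% of all genes so filtered. After rescaling, 45 members were higher and 66 lower (22.6% and 33.2%), against 31.1% and 31.2% of all tested genes. All 27 higher members were also called higher after rescaling, and 66 of the 106 lower ones were also called lower. The median member changed by -0.25 (log2), against -0.20 for all tested genes, and after rescaling by -0.07, against 0.00.

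At 20 against 10 months, 145 members passed, 18 higher and 127 lower, with backgrounds of 64.7% called, 11.4% higher and 53.3% lower. The same limit on the lower count holds here. With at least 1 FPKM required in all 9 libraries, 129 of 175 members passed, 16 higher and 113 lower, against 67.3% of all genes so filtered. Rescaling gave 37 higher and 67 lower members, against 26.8% and 25.7% of all tested genes. The 18 higher members were all called higher after rescaling too, and 67 of the 127 lower ones were also called lower. The comparisons share libraries, so their counts are not independent of each other. Genes named below for large changes were chosen only where the ages compared did not overlap, so that lack of overlap is a description. At 20 against 2 months, 19.4% of all tested genes lay wholly higher and 51% wholly lower, against 27 and 110 of the 199 members. For all tested genes the shares were 12.6% and 55.3% at 20 against 10 months, and 32.3% and 21.5% at 10 against 2 months.

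**Figure D2:**
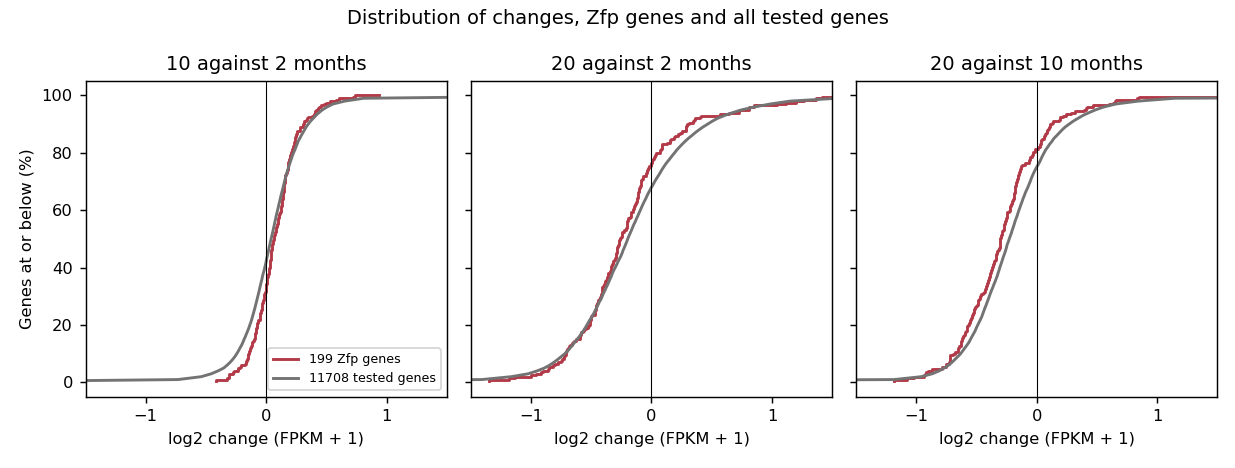
Cumulative share of genes (vertical axis, %) by log2 change (horizontal axis, FPKM + 1) for 199 Zfp genes and all 11708 tested genes, in the 3 comparisons. The Zfp median is 0.06 at 10 against 2 months, -0.25 at 20 against 2 months and -0.30 at 20 against 10 months, where all tested genes have 0.04, -0.20 and -0.23.

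Zfp386, a gene with the KRAB entry on chromosome 6 (143901280 to 143917575 in the coordinates of the deposited table; its genome build was not stated), rose more than any other member at 20 against 2 months. It had 3.64, 3.63 and 3.16 FPKM at 2 months, 7.58, 7.99 and 7.13 at 10 months and 27.8, 27.9 and 29.7 in the 20-month libraries. The ages did not overlap, and each later age lay above the one before it. The log2 change on the FPKM + 1 scale was 0.94 ± 0.061 (SE) at 10 against 2 months (adjusted p = 2.64e-05), 2.72 ± 0.061 at 20 against 2 months (adjusted p = 1.07e-08) and 1.78 ± 0.061 at 20 against 10 months (adjusted p = 2.56e-07). Both of its listed transcripts were higher at 20 months. The one of 3544 bases had 23.7, 21.4 and 24.8 FPKM at 20 months against 2.27, 3.63 and 2.78 at 2 months, and the one of 1873 bases had 7.88, 12.3 and 9.19 FPKM against 2.58, 0 and 0.713.

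Zfp600, another gene with the KRAB entry (chromosome 11, 38727048 to 38773607), rose late. It had 0.582, 0.374 and 0.503 FPKM at 2 months, 0.846, 0.83 and 0.815 at 10 months and 7.12, 6.97 and 7.71 in the 20-month libraries. The 20-month libraries all lay far above the rest, and 2 and 10 months did not overlap either. It passed the filter through its 20-month libraries alone, so its rise there is a description of how it entered and gives no support to the count of risers. The log2 change was 2.48 ± 0.077 at 20 against 2 months (adjusted p = 4.93e-08) and 0.30 ± 0.077 at 10 against 2 months (adjusted p = 0.0176). KRAB genes can share sequence with close copies, so how reads were divided among copies is uncertain here and in the clusters, and whether the different read length at 20 months bears on these levels was not tested.

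Outside the clusters, 4 more members rose by a log2 value of 1 or more at 20 against 2 months, each at both steps and with no overlap between any ages. Zfp182, a gene with the KRAB entry on chromosome X, had 2.09, 2.06 and 1.83 FPKM at 2 months, 3.76, 3.08 and 3.61 at 10 months and 6.51, 6.97 and 7.48 in the 20-month libraries (1.41 ± 0.080 at 20 against 2 months, adjusted p = 8.97e-07). Zfp292, known in rat as an activator of the growth hormone gene, had 2.43, 2.45 and 2.28 FPKM at 2 months, 3.74, 3.57 and 3.27 at 10 months and 6.96, 6.72 and 7.76 in the 20-month libraries (1.26 ± 0.069, adjusted p = 7.7e-07). Both more than doubled on the FPKM scale, and their largest values were all at 20 months. Zfp692, whose human ortholog binds the AICAR response element, had 2.49, 2.05 and 2.64 FPKM at 2 months, 3.97, 4.41 and 5.43 at 10 months and 8.48, 7.72 and 7.09 in the 20-month libraries (1.37 ± 0.110, adjusted p = 6.46e-06). Zfp62 had 3.0, 3.02 and 3.13 FPKM at 2 months, 5.88, 5.68 and 5.73 at 10 months and 8.99, 8.05 and 7.96 in the 20-month libraries (1.2 ± 0.057, adjusted p = 3.5e-07). With Zfp386, Zfp600 and the clustered genes Zfp51 and Zfp52, these were the 8 members that rose by a log2 value of 1 or more at 20 against 2 months. Among all 11708 tested genes, 328 were called with such a rise. After rescaling it was 11 of the 199 members and 522 of all tested genes. Only a high value at 20 months let Zfp600 in. Zfp52 was under 1 FPKM in every 2-month library and entered through the 10- and 20-month libraries, where it was higher. The rises of these 2 genes are a description and give no support to the count.

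In Zfp612 and Zfp110, nearly all of the gain lay between 2 and 10 months in the values as deposited, and after rescaling both also rose at 20 against 10 months. Zfp612, with the KRAB entry, had 14.7, 16.6 and 15.8 FPKM at 2 months, 25.4, 24.3 and 23.3 at 10 months and 25.5, 24.1 and 25.5 in the 20-month libraries. The 10- and 20-month libraries overlapped and all lay above those of 2 months, with 0.60 ± 0.053 at 10 against 2 months (adjusted p = 8.83e-05) and 0.04 ± 0.053 at 20 against 10 months (adjusted p = 0.52; 0.30 and 0.00126 after rescaling). Zfp110, whose mouse ortholog binds the neurotrophin receptor p75, had 22.5, 21.9 and 22.2 FPKM at 2 months, 31.3, 31.2 and 32.5 at 10 months and 32.8, 35.2 and 32 in the 20-month libraries. It changed by 0.50 ± 0.042 at 10 against 2 months (adjusted p = 7.37e-05) and by 0.07 ± 0.042 at 20 against 10 months (adjusted p = 0.168; 0.33 and 0.000302 after rescaling).

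**Figure D3:**
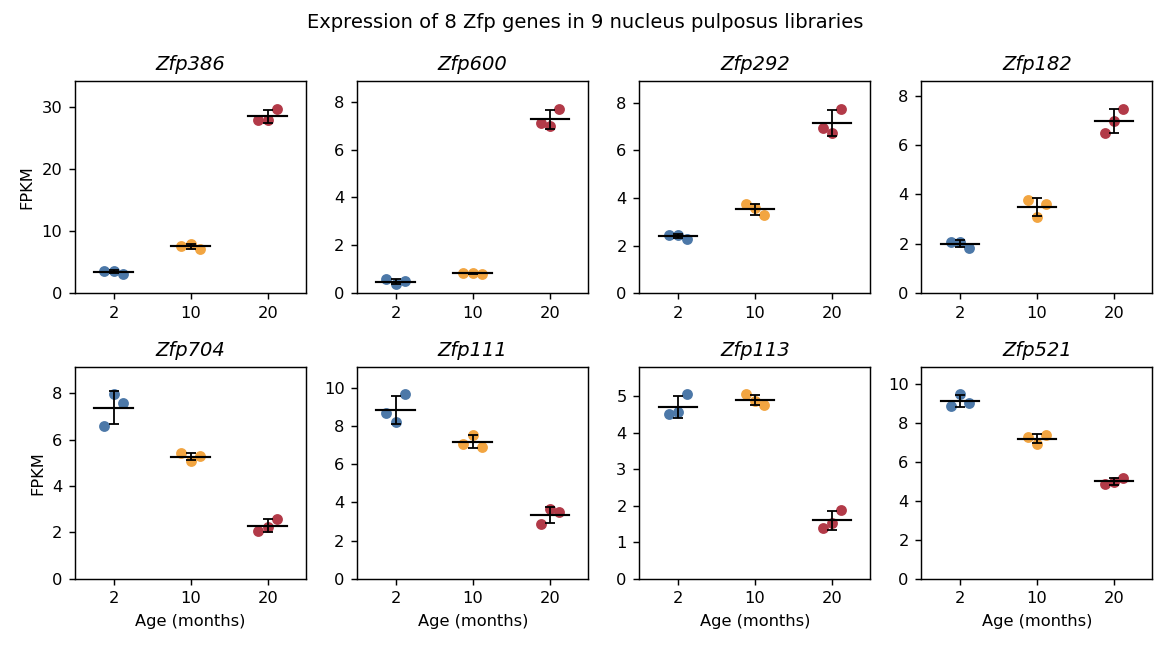
FPKM (vertical axes, each from 0) of Zfp386, Zfp600, Zfp292, Zfp182, Zfp704, Zfp111, Zfp113 and Zfp521 at 2, 10 and 20 months, with 1 point per library and the mean ± SD (n = 3 per age). The first 4 genes are highest at 20 months, where Zfp386 reaches 27.8 to 29.7 FPKM, and the other 4 are lowest there, where Zfp113 lies between 1.38 and 1.88 FPKM.

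Zfp704, on the list of developmental and mesenchymal regulators, fell the most at 20 against 2 months. It had 6.6, 7.95 and 7.59 FPKM at 2 months, 5.4, 5.1 and 5.3 at 10 months and 2.05, 2.24 and 2.59 in the 20-month libraries. The ages did not overlap and each was below the one before. The log2 change was -0.42 ± 0.082 at 10 against 2 months (adjusted p = 0.00528), -1.35 ± 0.082 at 20 against 2 months (adjusted p = 1.24e-06) and -0.93 ± 0.082 at 20 against 10 months (adjusted p = 1.87e-05).

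Others of this list fell as well. Zfp521, an antagonist of Ebf1 that acts in skeletal differentiation in mouse, had 8.89, 9.49 and 9.06 FPKM at 2 months, 7.3, 6.94 and 7.37 at 10 months and 4.86, 4.96 and 5.2 in the 20-month libraries, a change of -0.76 ± 0.049 at 20 against 2 months (adjusted p = 1.87e-06). Zfp516, an activator of brown fat genes in mouse, had 8.73, 8.52 and 8.13 FPKM at 2 months, 7.12, 6.58 and 7.44 at 10 months and 3.92, 3.39 and 4.34 in the 20-month libraries (-0.96 ± 0.078, adjusted p = 6.8e-06). In both genes all 3 ages were apart. Zfp467, which favours fat over bone formation in mouse, had 8.33, 7.43 and 6.35 FPKM at 20 months against 15.5, 15.5 and 16 at 2 months (-1.0 ± 0.076, adjusted p = 4.62e-06), with 13.4 FPKM in each 10-month library. Its 20-month libraries were all below those of both earlier ages.

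Of the 11 genes on the list, 9 passed the filter, and Zfp423 and Zfp536 stayed under it in every library. All 9 were lower at 20 against 10 months (median -0.45; 5 after rescaling), 7 were lower and none higher at 20 against 2 months (median -0.32; 5 after rescaling), and 3 were lower and 1 higher at 10 against 2 months. Of all tested genes, 53.3% were lower at 20 against 10 months (25.7% after rescaling), 49.6% at 20 against 2 months (31.2% after rescaling) and 11.4% at 10 against 2 months. Zfp395, the most abundant of them and induced by hypoxia in human cells, had 26.9, 29.5 and 28.4 FPKM at 20 months against 31.8, 32 and 33.6 at 2 months (-0.19 ± 0.042, adjusted p = 0.00286). The groups did not overlap, but the sign turned with the scale, since after rescaling the change was 0.03 (adjusted p = 0.581).

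Several genes with the KRAB entry fell mainly after 10 months. Zfp111 (chromosome 1) had 8.68, 8.2 and 9.67 FPKM at 2 months, 7.08, 7.56 and 6.9 at 10 months and 2.88, 3.65 and 3.49 in the 20-month libraries (-1.18 ± 0.083 at 20 against 2 months, adjusted p = 2.88e-06). Zfp113 (chromosome 12) had 4.5, 4.56 and 5.05 FPKM at 2 months, 5.04, 4.88 and 4.76 at 10 months and 1.38, 1.54 and 1.88 in the 20-month libraries (-1.19 ± 0.081 at 20 against 10 months, adjusted p = 5.3e-06). Zfp113 overlapped between 2 and 10 months, and both genes were lowest in every 20-month library. Zfp473, whose human ortholog takes part in the processing of histone messages, had 0.753, 0.432 and 0.633 FPKM at 20 months against 2.4, 2.48 and 2.26 at 10 months (-1.08 ± 0.088, adjusted p = 1.33e-05), with 1.88, 1.87 and 1.92 at 2 months. Zfp112 had 0.952, 0.75 and 0.789 FPKM at 20 months against 2.74, 2.44 and 2.28 at 10 months (-0.93 ± 0.082, adjusted p = 1.87e-05). Neither Zfp473 nor Zfp112 reached 1 FPKM in a 20-month library, so both entered through the earlier ages, where they were higher.

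The table's KEGG orthology entries put 82 tested members under KRAB, 8 under KRAB and SCAN, 6 under SCAN and 103 under none of these. The KRAB members had a median level of 3.67 FPKM, against 6.58 FPKM in the 103. At 10 against 2 months, 13 of the 82 rose and 2 fell (median 0.08; 10 and 2 after rescaling), and 23 of the 103 rose and 4 fell (median 0.03; 16 and 5 after rescaling). The 82 thus rose in 15.9% and fell in 2.44%, and the 103 in 22.3% and 3.88%. Of all tested genes, 19% rose and 11.4% fell, and 15.1% and 14.5% after rescaling. At 20 against 2 months, 13 of the 82 were higher and 41 lower (median -0.26; 20 and 29 after rescaling), and 13 of the 103 were higher and 58 lower (median -0.25; 24 and 33 after rescaling). The 82 were thus called higher in 15.9% and lower in 50%, near the 18.6% and 49.6% of all tested genes, and after rescaling in 24.4% and 35.4%, against 31.1% and 31.2%. As deposited, the mean was highest at 10 months in 49 of the 82 (59.8%, against 40.6% of all tested genes). It was lowest there in none of them, against 8.0% of all tested genes. As deposited, all 8 members with the KRAB and SCAN entry were lowest at 20 months, as were 64.2% of all tested genes. After rescaling, 2 of the 8 had a positive change at 20 against 2 months. In that comparison 4 of the 8 were called lower, and 2 after rescaling. The 36 tested genes with the KRAB entry under other symbols had 12 higher and 17 lower calls at 20 against 2 months (12 and 12 after rescaling). Differences between these classes were not tested.

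Of the 14 ubiquitous activators and repressors on the list, all tested, 6 rose and none fell at 10 against 2 months, and 2 were higher and 10 lower at 20 against 2 months (median -0.43; 4 and 7 after rescaling). Those that were lower made up 71.4% of the list, against 49.6% of all tested genes, and 50% after rescaling, against 31.2%. Higher calls at 20 against 2 months made up 14.3%, against 18.6%, and 28.6% after rescaling, against 31.1%. Those that rose at 10 months made up 42.9%, against 19%, but 21.4% after rescaling, against 15.1%. None fell at 10 months on either scale, where 11.4% of all tested genes fell (14.5% after rescaling). Zfp335, a partner of H3K4 methyltransferase complexes, had 7.3, 7.44 and 7.92 FPKM at 20 months against 12.7, 13.4 and 13 at 2 months (-0.71 ± 0.046, adjusted p = 1.66e-06), with 11.9, 12.5 and 12.1 at 10 months. Its 20-month libraries were apart from all others.

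The list of RNA, ribosome and ubiquitin proteins held the more abundant members, with a median of 18.7 FPKM over the 12 of 13 that were tested. At 20 against 2 months 3 were higher and 4 lower (median 0.02), and after rescaling 8 were higher and 2 lower (median 0.24), so the balance of directions turns with the scale. Higher calls made up 25% of the 12 and 66.7% after rescaling, against 18.6% and 31.1% of all tested genes, and lower calls 33.3% and 16.7%, against 49.6% and 31.2%. Zfp207, a spindle protein that binds Bub3 and the most abundant member, had 27, 32 and 29.1 FPKM at 20 months against 48.6, 49.8 and 47.9 at 2 months (-0.72 ± 0.059, adjusted p = 7.72e-06), with 49, 46.7 and 50.8 at 10 months. The fall lay wholly after 10 months, and it was -0.49 after rescaling. Zfp638, an RNA-binding protein that works with the silencing complex HUSH in human cells, had 6.49, 6.8 and 6.36 FPKM at 2 months, 9.76, 10.3 and 9.66 at 10 months and 12, 12.5 and 12.3 in the 20-month libraries (0.81 ± 0.045 at 20 against 2 months, adjusted p = 8.66e-07). Each of its ages lay above the one before with no overlap.

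The other abundant members were mixed. Zfp91, a ubiquitin ligase, averaged 32.4 ± 0.985 FPKM at 20 months against 36.1 ± 1.43 at 2 months (SD, n = 3 each), a change of -0.15 (adjusted p = 0.0129; 0.07 and 0.144 after rescaling). Zfp106, which binds RNA, averaged 20.4 ± 1.06 FPKM against 24.8 ± 0.746 (-0.27, adjusted p = 0.000692; -0.05 and 0.393 after rescaling). Zfp622, a factor of ribosome assembly, averaged 24.3 ± 2.03 FPKM against 23 ± 1.5 with overlapping libraries (0.07, adjusted p = 0.351; 0.29 and 0.0027 after rescaling). Zfp869, with the KRAB entry, was highest at 10 months, with 26.6, 28.8 and 28.3 FPKM at 2 months, 33.2, 32.3 and 34 at 10 months and 24.8, 22.8 and 22.7 in the 20-month libraries. Zfp958, also with the KRAB entry, had 16.2, 18 and 16 FPKM at 2 months, 22.1, 22.6 and 22.6 at 10 months and 32.2, 26.2 and 32.1 in the 20-month libraries, and rose by 0.81 ± 0.079 at 20 against 2 months (adjusted p = 2.06e-05).

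Of the 8 genes listed for imprint and retroelement control, 5 were tested, and 2 of these were lower and none higher at 20 against 2 months (1 lower after rescaling), a share of 40% lower where all tested genes had 49.6%. Zfp57, which maintains imprints in mouse, had 2.81, 2.51 and 2.55 FPKM at 20 months against 5.42, 4.29 and 5.1 at 2 months (-0.71 ± 0.092, adjusted p = 0.000121), with 4.43, 3.82 and 4.7 at 10 months. Its 20-month libraries lay below all others, while 2 and 10 months overlapped. Zfp708, which binds a repeat element in mouse, had 2.51, 2.45 and 2.42 FPKM at 2 months, 3.59, 4.41 and 3.5 at 10 months and 2.16, 1.48 and 1.35 in the 20-month libraries. It was highest at 10 months (0.48 ± 0.118 against 2 months, adjusted p = 0.0156) and lowest at 20 months (-0.87 ± 0.118 against 10 months, adjusted p = 0.000222).

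Neighbouring starts at most 500 kb apart joined 81 of the 228 Zfp rows into 17 chromosome clusters of 3 or more rows, with 75 tested members. Chromosome 1 held 60 rows and 51 members. Members in clusters had a median level of 3.51 FPKM, against 5.96 FPKM for the 124 outside, and 44 of the 75 carried the KRAB entry, against 38 of the 124. At 10 against 2 months, 8 of the 75 rose and 2 fell inside (7 and 3 after rescaling), against 28 and 4 of the 124 outside (19 and 4 after rescaling). Of all tested genes, 19% rose and 11.4% fell in this comparison, and 15.1% and 14.5% after rescaling. At 20 against 2 months, 8 of the 75 were higher and 42 lower (median -0.29), against 19 and 64 of the 124 (median -0.23), with 18.6% higher and 49.6% lower over all tested genes. After rescaling the counts were 14 and 24 inside, against 31 and 42 outside, with 31.1% and 31.2% over all tested genes. The difference between inside and outside was not tested.

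The cluster of Zfp54, Zfp52 and Zfp51 on chromosome 1 (61314070 to 61533178 in the deposited table's coordinates), all with the KRAB entry, had a median change of 1.04 at 20 against 2 months. That median is the change of Zfp51 and depends on Zfp52, which entered through the ages where it was high, so it is a description. The medians of the other 16 clusters were below 0, the nearest at -0.002 (4 of these 16 were above 0 after rescaling). Zfp52 had 0.347, 0.89 and 0.731 FPKM at 2 months, 1.52, 1.14 and 1.1 at 10 months and 2.26, 2.55 and 2.87 in the 20-month libraries (1.12 ± 0.140 at 20 against 2 months, adjusted p = 9.73e-05). Zfp51 had 1.79, 1.87 and 1.27 FPKM at 2 months, 2.58, 2.27 and 2.64 at 10 months and 4.41, 4.59 and 4.22 in the 20-month libraries (1.04 ± 0.097, adjusted p = 1.6e-05). Both rose at each step with no overlap between ages. Zfp52, under 1 FPKM at 2 months, entered through the later ages, so its rise is a description of how it entered. Zfp54 had 3.57, 2.11 and 2.5 FPKM at 20 months against 2.27, 2.39 and 1.85 at 2 months, which overlapped (0.22 ± 0.148, adjusted p = 0.217; 0.38 and 0.044 after rescaling). The 1 other tested gene within the span was also called higher at 20 against 2 months, with a change of 0.48.

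The cluster of Zfp418, Zfp772 and Zfp954 on the same chromosome (69615434 to 69859391) went the other way, and its genes are singled out after their values were seen. All 3 were lower at 20 against 2 months, with log2 changes between -0.82 and -0.46, also after rescaling. Zfp772 had 0.347, 0.165 and 0.074 FPKM at 20 months against 1.09, 1.12 and 1.08 at 2 months, Zfp418 had 0.891, 0.777 and 1.09 against 1.68, 2.22 and 1.8, and Zfp954 had 2.18, 1.67 and 1.88 against 3.0, 2.74 and 3.28. None of the 3 genes overlapped between these ages. Zfp772 reached 1 FPKM in the 3 libraries of 2 months and 1 of 10 months alone, so it could enter the tests only by being high earlier and its fall is a description. In the chromosome 7 cluster of Zfp41, Zfp623 and Zfp707 all 3 were lower too (2 after rescaling), and in the chromosome 8 cluster of 5 members around Zfp426 4 were lower (3 after rescaling, with Zfp26 higher). The largest cluster, 9 members on chromosome 4 (77495663 to 78258545), held both directions, with 2 higher, Zfp777 at 0.40 the most, and 4 lower, Zfp467 the most (2 and 2 after rescaling). Of all tested genes, 18.6% were higher and 49.6% lower, and 31.1% and 31.2% after rescaling. Other tested genes within these spans moved as well. As deposited, 2 of 2 were lower in the Zfp418 cluster, 6 of 9 in the Zfp41 cluster and 4 of 6 in the chromosome 4 cluster. In each of the last 2 clusters 1 such gene was higher.

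**Figure D4:**
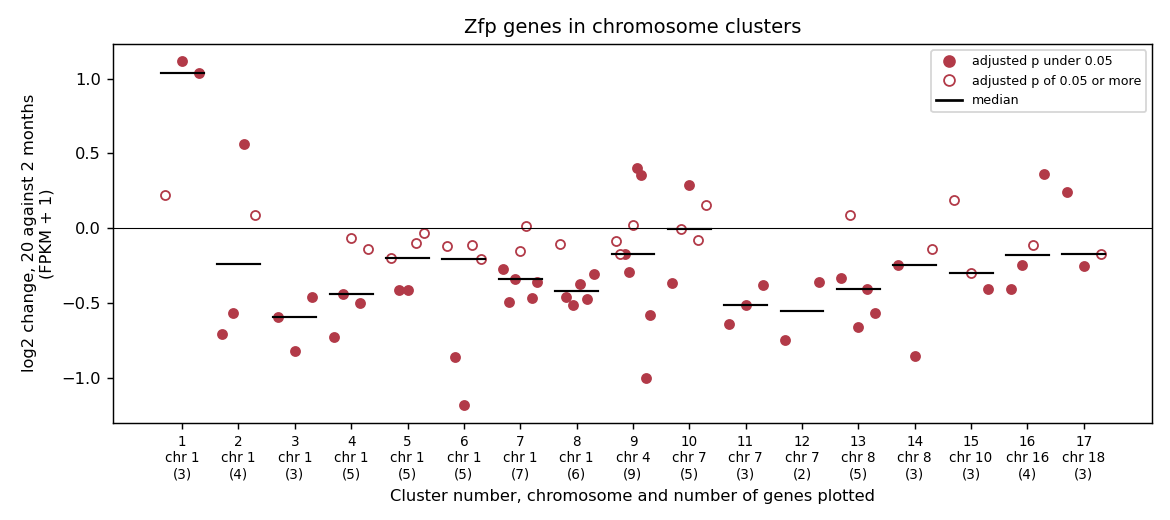
Log2 change at 20 against 2 months (vertical axis, FPKM + 1) of the 75 tested members in 17 chromosome clusters (horizontal axis, with chromosome and number of genes), filled where the adjusted p was under 0.05, with the median as a line. Cluster 1 (Zfp54, Zfp52 and Zfp51) has a median of 1.04, which is the change of Zfp51 and depends on Zfp52, a gene that entered through its later, higher ages. In clusters 3, 11 and 12 every plotted gene is filled and below 0, and in cluster 3 Zfp772 entered only through its earlier, higher ages. Of all tested genes, 49.6% were called lower.

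Symbols with 2 rows in the table are uncertain, since the quantification could split their reads, and 2 of them are given here, chosen after their values were seen. The 2 adjacent rows of Zfp260 had 12.6, 12.3 and 16.8 FPKM and 10.6, 10.8 and 6.35 FPKM in the 10-month libraries, so that replicate 3 was high in one row and low in the other. The 2 rows of Zfp84 changed by -0.41 and -0.27 at 20 against 2 months, both called lower, and only the first was called after rescaling. Whether the libraries kept strand was not stated, so reads of antisense partners cannot be told apart.

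Isoform use, tested as the ratio of an isoform to the gene's other isoforms, was called in 1 of 65 testable isoforms of 31 Zfp genes, against 5.23% of the 3477 isoforms tested in the table. In Zfp184, with the KRAB entry, the isoform ENSRNOT00000079676 made up 26.2, 27.3 and 30.7% of the gene's FPKM at 2 months, 26.3, 27.6 and 22.3% at 10 months and 11.4, 10.3 and 16.1% at 20 months (limma F test, adjusted p = 0.0411). The 20-month shares all lay below the rest, while the gene itself had 2.13, 2.22 and 2.0 FPKM at 2 months, 2.11, 2.2 and 2.22 at 10 months and 2.02, 1.91 and 2.18 in the 20-month libraries. Leaving out single libraries gave 0 to 2 called isoforms, and 0 without any 1 of the 2-month libraries, without replicate 3 of 10 months or without replicate 3 of 20 months.

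The proteins that KRAB members work with were taken from a list of 30 co-repressor and silencing genes, of which 25 were tested. At 10 against 2 months 7 (28%) rose and 3 (12%) fell, against 19% and 11.4% of all tested genes. After rescaling 5 (20%) rose and 3 (12%) fell, against 15.1% and 14.5%. At 20 against 10 months 2 (8%) were higher and 17 (68%) lower, against 11.4% and 53.3% of all tested genes. After rescaling it was 6 (24%) and 8 (32%), against 26.8% and 25.7%. At 20 against 2 months 4 were higher and 15 lower (8 and 10 after rescaling). The calls at 20 against 2 months made up 16% higher and 60% lower, against 18.6% and 49.6% of all tested genes, and after rescaling 32% and 40%, against 31.1% and 31.2%. Mphosph8, a subunit of the HUSH complex, had 6.98, 8.11 and 7.77 FPKM at 2 months, 16.7, 18.1 and 16.4 at 10 months and 22.8, 28.1 and 26.2 in the 20-month libraries (1.63 ± 0.081 at 20 against 2 months, adjusted p = 4.55e-07). Atf7ip, a partner of Setdb1, had 10.2, 10.1 and 9.79 FPKM at 2 months, 7.92, 8.42 and 8.41 at 10 months and 3.32, 4.02 and 4.03 in the 20-month libraries (-1.21 ± 0.067, adjusted p = 8.13e-07). The ages did not overlap in either gene, and the 2 genes moved in opposite directions at both steps.

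The maintenance DNA methyltransferase Dnmt1 had 5.2, 5.14 and 5.31 FPKM at 20 months against 7.91, 7.78 and 8.12 at 2 months (-0.52 ± 0.044, adjusted p = 8.04e-06). Cbx3, which encodes a heterochromatin protein, had 86.1, 86.9 and 93.2 FPKM at 20 months against 65.8, 66.1 and 63.4 at 2 months (0.44 ± 0.037, adjusted p = 7.79e-06). Dnmt1 was lower and Cbx3 higher after rescaling too. The scaffold Trim28 and the methyltransferase Setdb1 are added for their role. Trim28 had 35.1, 34.9 and 34.1 FPKM at 20 months against 34.8, 34.4 and 34.4 at 2 months, which overlapped (0.01 ± 0.031, adjusted p = 0.839; 0.23 and 0.000154 after rescaling), with 37.7, 38.3 and 37 at 10 months. Setdb1 averaged 11.6 ± 0.213 FPKM at 2 months, 14.3 ± 0.754 at 10 months and 9.39 ± 0.523 in the 20-month libraries (SD, n = 3 each), and its change at 20 against 2 months was -0.28 (adjusted p = 0.00136; -0.07 and 0.31 after rescaling).

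**Figure D5:**
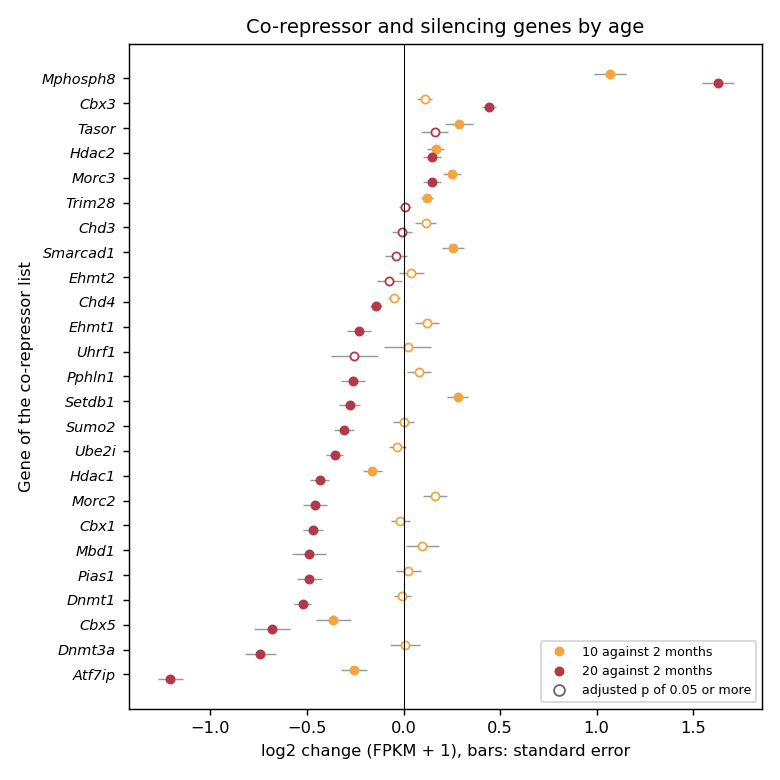
Log2 change (horizontal axis, FPKM + 1, bars for the standard error) of 25 co-repressor and silencing genes at 10 against 2 and 20 against 2 months, with open points where the adjusted p was 0.05 or more. Mphosph8 has the largest gains, at 1.07 and 1.63, and Atf7ip the largest loss at 20 against 2 months, at -1.21.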

How the data were processed

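The authors deposited FPKM values per gene and per isoform for the 9 input libraries, with the signal of read coverage per base beside them, per the file headers. Per the submitters' processing notes, the tools were HISAT2 2.0.4, StringTie 1.3.4d and cutadapt 1.9, besides edgeR and DESeq2, without a stated role. The genome build was not stated, and the enriched libraries were not analysed here. Aligned gigabases per library come from FPKM and coverage.

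Genes with at least 1 FPKM in 3 or more libraries were tested on log2(FPKM + 1) with limma (version 3.58.1, under R 4.3.3) in its trended empirical Bayes form (1 fit over 3 ages, Benjamini-Hochberg adjustment over all 11708 tested genes, called at adjusted p under 0.05). The log2(FPKM + 1) scale understates changes of low genes. Isoform ratios used a pseudocount of 0.5, isoforms with a mean share of 10 to 90% and genes with a summed FPKM of at least 2. Tables and sequences were handled with Python 3.11.15 and pandas 2.3.3. Alternatives were other pseudocounts, filters, scalings, array weights, a replicate block, fits of 2 ages and leaving out each library.

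The members, gene lists and tests were chosen with earlier results of these data known. Members are named when among the 8 highest, among the 5 largest changes per direction and comparison with groups apart and at least 2 FPKM in the higher group, or among the 2 strongest of a role list. Clusters, isoforms and at most 4 co-repressors follow the same kind of rule, and other names are marked in the text.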

Additional observations from a re-analysis of the deposited data

How the results depend on the processing

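Among 59 changes of single genes, 2 called ones turned in sign after median-of-ratios scaling, both at 20 against 2 months: Zfp395 to 0.031 (adjusted p = 0.581) and Zfp91 to 0.073 (adjusted p = 0.144). That scaling also ended 3 calls (Zfp106, Setdb1 and the second Zfp84 entry) and added 5 (Zfp54, Zfp622 and Trim28 at 20 against 2 months, Zfp110 and Zfp612 at 20 against 10 months). It turned the balance of higher and lower calls at 20 against 2 months in the RNA, ribosome and ubiquitin list to 8 and 2, against 3 and 4 as deposited, and in the Klf genes to 6 and 4, against 3 and 5. Members called at 10 against 2 months numbered 26 to 47 when single libraries were left out, 123 to 134 at 20 against 2 months, 130 to 142 at 20 against 10 months, and 136 to 144 in the F test. The share of higher genes among the calls at 20 against 2 months was 20.3%, and 40.5% after median-of-ratios scaling. At 20 against 10 months it was 12.4%, and 35.6% after that scaling, and at 10 against 2 months 85.7%, and 75% after quantile normalization. Zfp111 and Zfp516 at 10 against 2 months lost their calls under several alternatives (adjusted p between 0.0511 and 0.131, and between 0.0526 and 0.156), as did Zfp600 (0.0512 to 0.0855). Zfp708 at 10 against 2 months had an adjusted p of 0.0606 without replicate 2 of 10 months, and Zfp91 at 20 against 2 months one of 0.0547 without replicate 1 of 2 months. Called Zfp isoforms numbered 3 with a summed FPKM of at least 5, 0 with the replicate block and 0 to 2 without single libraries. The first 2 of these settings called 8.84% and 0.834% of all tested isoforms. Libraries with the same replicate number did not deviate together over all tested genes (correlations between -0.04 and 0.049). No pairing by number was thus seen, but a weak one, or one in some genes only, would not show in such a correlation. With the replicate block 31, 136 and 145 members were called in the 3 comparisons and 142 in the F test. The same fits called 27.2%, 67.1%, 63.8% and 73.9% of all tested genes. Coverage on the members had a median of 18.75 reads per base and was 2.15 at the lowest, which limits what can be said of the low genes.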

Other observations

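Other zinc finger families were counted in the same fit. Of 34 tested Zbtb genes, whose proteins join zinc fingers to a BTB domain, 3 were higher and 19 lower at 20 against 2 months (7 and 13 after rescaling). Of 8 Zscan genes 2 were higher and 5 lower (3 and 4 after rescaling), and of 6 Zkscan genes none was higher and 3 lower (1 and 2 after rescaling). Of 13 Klf genes, 3 were higher and 5 lower, and after rescaling 6 were higher and 4 lower. Of all tested genes, 18.6% were higher and 49.6% lower, and 31.1% and 31.2% after rescaling. The differences between these families and the Zfp genes were not tested.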
